A study of Rattus norvegicus with 8 samples.

Results

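The granins and the enzymes that mature peptide hormones were described in the hypothalamus of female and male rats. The genes were Chga, Chgb, Scg2, Scg3, Scg5, Vgf, Pcsk1, Pcsk2, Cpe and Pam, chosen by name: 10 genes of the 14603 named genes tested. Each was read by 1 probe on 1 spot per array, so the array gave 10 probes for them among 30367 unique probes. The females were Sprague Dawley rats in estrus (n = 4) and the males were Sprague Dawley rats (n = 4). All 8 animals were 3 to 4 months old, with no treatment named in the labels, and kept under 14 h of light and 10 h of dark. Hypothalamic total RNA was labelled with the dyes Cy3 or Cy5 and hybridised to 4 two-colour Agilent arrays of 1 slide. Each array held 1 female and 1 male with the same replicate number, and the female was the Cy3 sample of arrays 1 and 3 and the Cy5 sample of the other two.

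Neuropeptides are made as larger precursors that are packed into dense-core granules in the trans-Golgi network. The prohormone convertases cut these precursors after basic residues, carboxypeptidase E trims the exposed basic residues, and peptidylglycine alpha-amidating monooxygenase turns a terminal glycine into the amide that many peptides need for activity. Granins are acidic proteins that are stored with the peptides, take part in the sorting and condensation of granule content, and are cut into peptides of their own. The hypothalamus is rich in neurons that release such peptides, among them the hormones that drive the pituitary.

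All 10 probes were well above background in all 8 samples. The median spot signal above local background over the whole array was 501.8 to 530.1 intensity units in the Cy3 samples and 147.7 to 271.8 in the Cy5 samples. The Pcsk1 spot of array 1 carried the scanner software's outlier flag and was left out, so Pcsk1 rested on 3 arrays. Levels are normalized log2 intensities, and they cannot be set side by side between probes. The log2 ratio is female over male within an array. In tissue RNA, fewer cells of a type and less RNA per cell cannot be told apart.

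One library went against its tissue label. Markers of hypothalamic neurons, of which 15 of 18 were well above background in every sample and 0 were below it in all, summed to 266055 to 344504 intensity units in the females. They summed to 33899 in the library labelled male 2 and to 273213 to 301817 in the other males. Markers of cortex, hippocampus and striatum summed to 22946 to 50225 in the females, with female 2 the highest, to 150278 in the library labelled male 2 and to 23231 to 25404 in the other males. Of this forebrain list 12 of 16 on the array were well above background everywhere and 0 were below it in all samples. Markers of neurons in general summed to 100142 to 139507 in the females, to 210014 in the library labelled male 2 and to 113200 to 150616 in the other males. Summed pituitary markers were highest in female 2, at 160188 against 32898 to 87218 in the other females. They were 12728 in the library labelled male 2 and 49884 to 88045 in the other males. The median pituitary marker, less the mean of the samples of its dye, was at -0.10 in female 2. The typical marker of that list was thus not raised there. Both animals of array 2 thus stood apart in marker content, and the fitted ratios below are given with and without array 2. Without array 2, array 4 alone has the female as the Cy5 sample, so its own deviation does not enter the error. The standard errors and intervals without array 2 thus do not measure the spread between the arrays left. Male 4 stood apart in the sum of markers of choroid plexus and ependyma. They summed to 10069 to 15699 in the females, to 99461 in male 4 and to 11590 to 19389 in the other males. The median marker of that list, less the mean of the samples of its dye, was at 0.26 in male 4 and 0.19 in female 1. Male 4 thus stood apart in the sum more than in the typical marker. The part of all these markers in the results was not tested.

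**Figure D1:**
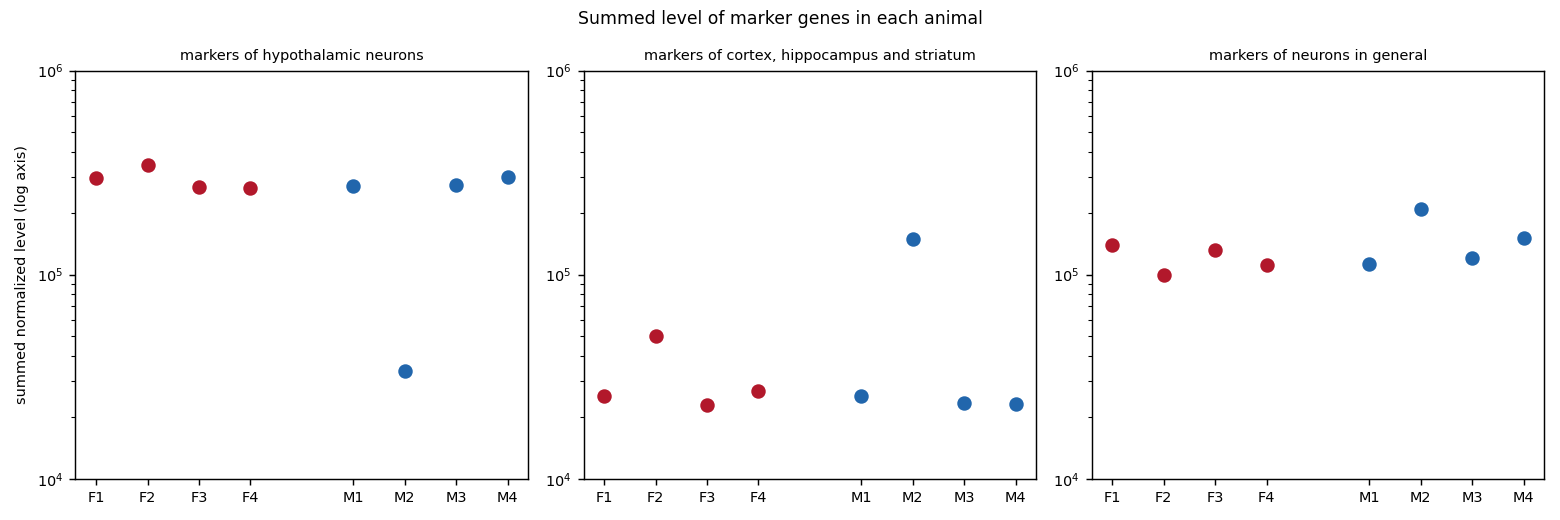
Summed normalized level (log axis) of the marker genes of hypothalamic neurons, of cortex, hippocampus and striatum, and of neurons in general in each animal, females (F, red) left and males (M, blue) right. The library labelled male 2 lies lowest in the left panel, at 33899, and highest in the middle panel, at 150278.

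The probe sequences are shown because each gene was read through a single stretch of its transcript, and they fall into a pair of sets. Stretches of 4 probes hold the polyadenylation signal AATAAA, in capitals, on the strand of the probe, which was the strand searched.
Chga: aatttattgaaggaagAATAAAcctgcttt
Chgb: tgaaacacaaacAATAAAagatttacctga
Scg5: tctgctgcttcttAATAAAtgtatgtgcaa
Vgf: atagttttgctaagaAATAAAagtgactat
The other 6 probes hold no AATAAA, and those of the genes that differed most on array 2 are shown, whole for Pcsk2, Scg3 and Pam and as the middle 30 bases for Cpe and Scg2.
Pcsk2: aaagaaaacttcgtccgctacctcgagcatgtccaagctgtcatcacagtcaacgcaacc
Scg3: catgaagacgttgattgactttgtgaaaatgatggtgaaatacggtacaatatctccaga
Pam: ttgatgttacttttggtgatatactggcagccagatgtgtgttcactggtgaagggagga
Cpe: ctaatggctttaatatatccatagactata
Scg2: aatgctcacatatgatgaagagtatcctat
On the rn4 build, used by the array files, the probe positions are chr6:126832496-126832555 for Chga, chr3:120584813-120584872 for Chgb and chr3:99629194-99629253 for Scg5. They are chr12:20906265-20906324 for Vgf, chr3:132255540-132255599 for Pcsk2 and chr8:80496358-80496417 for Scg3. They are chr9:96977460-96977519 for Pam, chr16:26750109-26750168 for Cpe, chr9:78762735-78762794 for Scg2 and chr2:1969912-1969971 for Pcsk1. Among all probes kept by the filter on dim signals, 9.5% hold AATAAA. The median absolute log2 ratio on array 2 was 0.32 for the 4 probes with the signal and 1.43 for the 6 without it. Over all kept probes these medians were 0.35 with the signal and 0.26 without it, so the order of the 10 probes was not that of the array. The grouping by AATAAA was made with the ratios known and is a description.

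Chromogranin A, chromogranin B and secretogranin II are the classical granins, and they did not behave alike across animals. Chga, widely used as a marker of neuroendocrine cells, had levels of 13.03, 13.04, 13.16 and 13.10 in females 1 to 4, against 12.94, 13.03, 13.05 and 13.20 in males 1 to 4. The lowest and the highest animal were both males, and all females lay between them. Chga averaged 13.08 ± 0.06 in females and 13.06 ± 0.10 in males (SD, n = 4 each), with a fitted log2 ratio of 0.03 ± 0.06 (SE; adjusted p = 0.86, limma with Benjamini-Hochberg adjustment over 21995 probes). Its 95% interval ran from -0.14 to 0.20. Without array 2 the ratio was 0.00087 ± 0.07 (interval -0.19 to 0.19). On array 2 its ratio of 0.01 stood at percentile 52.6 of all probes.

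Chgb, a close relative of Chga that binds calcium in granules, had levels of 14.77, 14.85, 14.96 and 15.02 in females 1 to 4, against 14.86, 15.50, 14.87 and 14.92 in males 1 to 4. The library labelled male 2 stood alone at the top, while the other males lay within the range of the females. The log2 ratios on arrays 1 to 4 were -0.09, -0.65, 0.09 and 0.10. The fitted ratio was -0.14 ± 0.14 (interval -0.53 to 0.25, limma adjusted p = 0.696), and without array 2 it was 0.05 ± 0.08 (interval -0.17 to 0.27).

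Scg2, the precursor of the peptide secretoneurin, had levels of 15.71, 16.29, 15.95 and 16.22 in females 1 to 4, against 15.95, 14.93, 16.06 and 15.84 in males 1 to 4. The library labelled male 2 was the lowest of all animals, also after removal of the dye mean. By level female 2, on the same array, was the highest, but after removal of the dye mean it was female 3 (0.34, and 0.16 in female 2). The Cy3 mean holds the library labelled male 2, which lowers it and so raises the other Cy3 samples. With replicate 2 left out of the dye means, female 3 was at 0.11 and female 4 at 0.14. The ratio on array 2 was 1.36, at percentile 98.2 of all probes, while arrays 1, 3 and 4 gave -0.24, -0.11 and 0.38. The fitted ratio was 0.35 ± 0.18 (interval -0.15 to 0.84, limma adjusted p = 0.56), and it came to 0.10 ± 0.07 (interval -0.11 to 0.31) without array 2. The deposited value table of the authors gave the library labelled male 2 a log2 level of 4.76 and the other 7 samples 5.59 to 6.33, so it was the lowest there as well.

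Scg3 binds chromogranin A and cholesterol-rich membrane and so links granule content to the membrane. Its levels were 11.50, 11.03, 11.58 and 11.06 in females 1 to 4, against 11.02, 12.02, 11.32 and 11.59 in males 1 to 4. These values followed the dye: both Cy3 females lay above both Cy5 females, and both Cy3 males above both Cy5 males. Scg3 was the only member whose dye effect passed the threshold (-0.57 on the log2 scale, limma adjusted p = 0.0458), as did that of 12.7% of all probes. With the dye in the fit, the sex ratio was -0.20 ± 0.11 (interval -0.49 to 0.09, limma adjusted p = 0.565), and -0.08 ± 0.08 (interval -0.32 to 0.16) without array 2.

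Vgf, a granin-like precursor of peptides that act on energy balance, had levels of 15.27, 15.07, 15.40 and 15.46 in females 1 to 4, against 15.39, 14.75, 15.34 and 15.42 in males 1 to 4. Within each sex replicate 2 was the lowest, and in males it lay far below the rest. The fitted ratio was 0.07 ± 0.08 (interval -0.15 to 0.30, limma adjusted p = 0.718), and without array 2 it was 0.0041 ± 0.08 (interval -0.22 to 0.23).

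Scg5 encodes 7B2, the chaperone that convertase 2 needs to mature and that also inhibits it. Scg5 had levels of 15.21, 15.24, 15.37 and 15.25 in females 1 to 4, against 15.00, 15.56, 15.13 and 15.25 in males 1 to 4. The females lay close together and the males spread around them, with the library labelled male 2 again at the top. The ratios on arrays 1, 3 and 4 were 0.21, 0.25 and 0.00 (just above 0), and array 2 turned the other way at -0.32. The fitted ratio was 0.03 ± 0.08 (interval -0.19 to 0.26, limma adjusted p = 0.866). Without array 2 it was 0.11 ± 0.07 (interval -0.08 to 0.31), the highest ratio of the 9 genes that could then be fitted.

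The convertases gave the lowest ratio of the 10 genes and the ratio on the fewest arrays. Pcsk2, the convertase that makes many of the smaller neuropeptides, had levels of 10.70, 10.18, 10.53 and 10.52 in females 1 to 4, against 10.51, 11.70, 10.65 and 10.96 in males 1 to 4. The library labelled male 2 was the highest, also after removal of the dye mean, and the other animals overlapped. By level female 2 was the lowest, but after removal of the dye mean it was female 3 (-0.44, and -0.28 in female 2). The library labelled male 2 raises that Cy3 mean, and with replicate 2 left out of the dye means female 3 was at -0.20. The ratios on arrays 1 to 4 were 0.19, -1.52, -0.12 and -0.45, that of array 2 at percentile 1.7 of all probes. The fitted ratio was -0.47 ± 0.20 (interval -1.02 to 0.07), with an unadjusted p of 0.0732 and an adjusted p of 0.555 in limma. Without array 2 it was -0.21 ± 0.10 (interval -0.48 to 0.06), again the lowest of the 9 genes fitted. With only the library labelled male 2 left out, in a fit of the separate channels, it was -0.28 ± 0.10 (unadjusted p = 0.0313, limma adjusted p = 0.467). That fit ignores the pairing of animals by array, keeps female 2 and was chosen after seeing the data.

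Pcsk1, the convertase that makes the first cuts in precursors such as proopiomelanocortin, had levels of 9.13, 9.66 and 8.96 in females 2, 3 and 4, against 9.45, 9.00 and 9.58 in males 2, 3 and 4. The 3 Cy3 samples were above the 3 Cy5 samples, so the level followed the dye channel in both sexes. The ratios on arrays 2, 3 and 4 were -0.33, 0.66 and -0.62. The fitted ratio from these 3 arrays was 0.09 ± 0.11 (interval -0.24 to 0.43, limma adjusted p = 0.73). In that fit array 3 alone has the female as the Cy3 sample, so its own deviation does not enter the error. The error and interval thus do not measure the spread between the 3 arrays. Without array 2 only 2 arrays with opposite dyes are left and the ratio could not be fitted with an error. With only the library labelled male 2 left out, the fit of the separate channels gave 0.06 ± 0.10.

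Cpe, which trims basic residues and has been described as a sorting receptor at the granule membrane, had levels of 15.90, 15.38, 15.89 and 15.61 in females 1 to 4, against 15.84, 16.88, 15.72 and 15.76 in males 1 to 4. The library labelled male 2 was far above all others. By level female 2 was the lowest, but after removal of the dye mean it was male 4 (-0.26 in female 2 and -0.35 in male 4). The library labelled male 2 raises that Cy3 mean. With replicate 2 left out of the dye means, male 4 was at -0.09 and female 4 at -0.11. Before normalization the Cpe spot read 176054 intensity units above background in the library labelled male 2 and 80158 to 93087 in the other Cy3 samples. In the deposited value table of the authors, it stood at 6.73 there and at 5.53 to 5.97 in the other 7 samples. The ratio on array 2 was -1.50, at percentile 1.8 of all probes, and those on arrays 1, 3 and 4 were 0.07, 0.17 and -0.15. The fitted ratio of -0.35 ± 0.24 (interval -1.01 to 0.30, limma adjusted p = 0.596) became -0.01 ± 0.07 (interval -0.22 to 0.19) without array 2.

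Pam, the copper-dependent amidating enzyme, had levels of 9.37, 10.50, 9.19 and 9.65 in females 1 to 4, against 9.66, 8.64, 9.80 and 9.33 in males 1 to 4. Female 2 was the highest and the library labelled male 2 the lowest of the 8 animals, also after removal of the dye mean. The ratio on array 2 was 1.86, at percentile 99.3 of all probes, while arrays 1, 3 and 4 gave -0.29, -0.62 and 0.32. The fitted ratio was 0.32 ± 0.28 (interval -0.44 to 1.07, limma adjusted p = 0.649). It changed sign to -0.07 ± 0.10 (interval -0.34 to 0.21) without array 2.

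**Figure D2:**
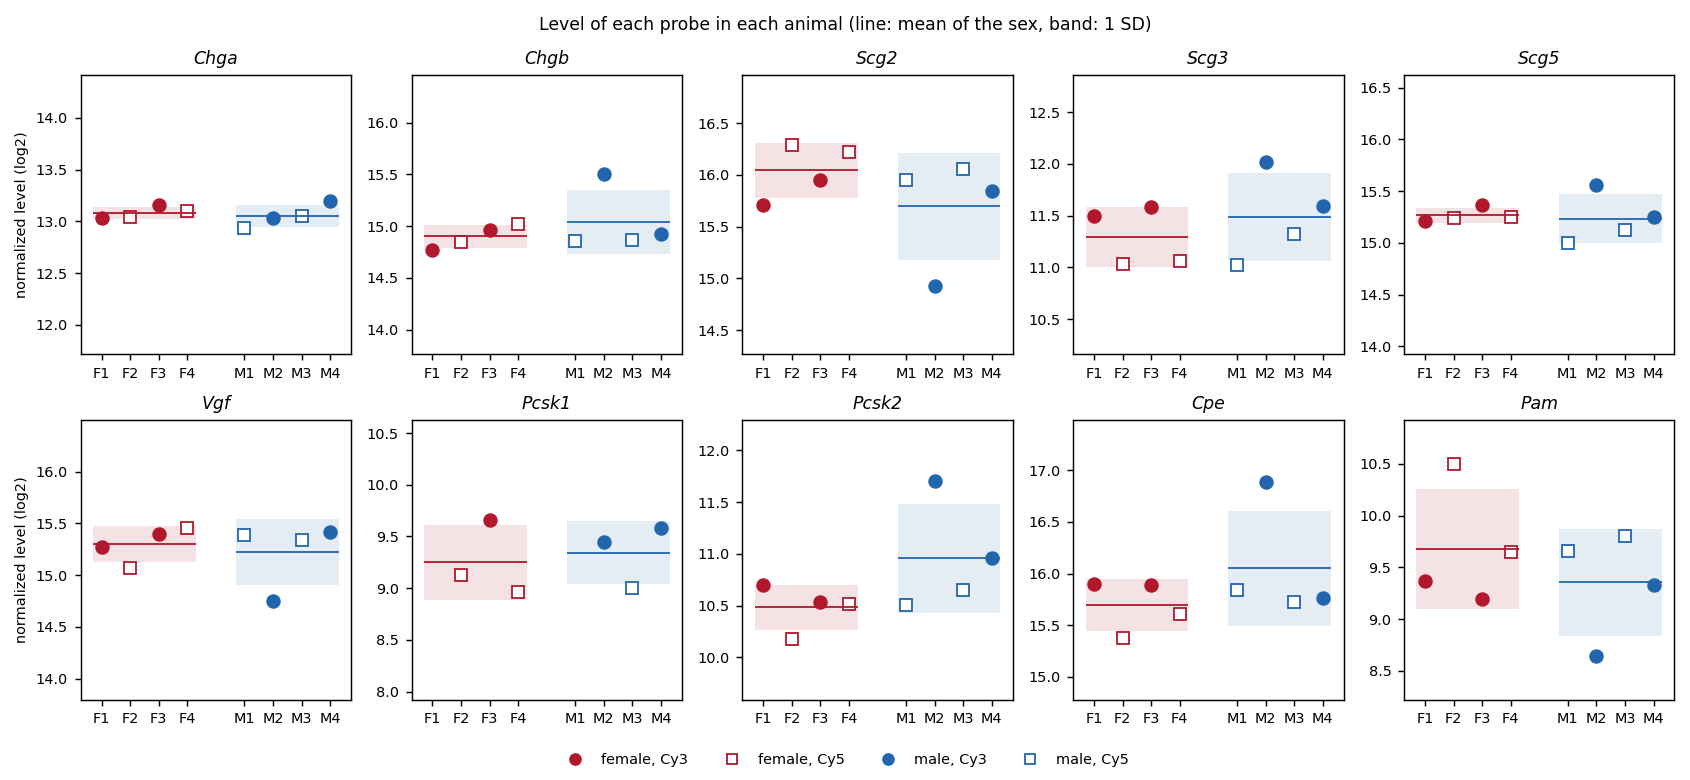
Normalized log2 level of each probe in females (F, red) and males (M, blue), with Cy3 samples as filled circles, Cy5 samples as open squares, lines at the mean of each sex and bands of 1 SD. Every panel spans the same log2 range, and the library labelled male 2 lies apart for Cpe (16.88), Pcsk2 (11.70), Chgb (15.50) and Scg2 (14.93).

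Across the group, 0 of 10 genes differed between the sexes at an adjusted p under 0.05, against 0.0% of the 21995 probes tested. At an unadjusted p under 0.05 the count was again 0 of 10, against 8.5% of all probes in the limma fit. The levels of females and males overlapped for all 10 genes, while 2.83% of all probes did not overlap, or 6.51% after removal of the dye mean. The fitted ratios ran from -0.47 for Pcsk2 to 0.35 for Scg2, with 6 above and 4 below 0 and a median of 0.03, beside 0.02 for all named genes. Without array 2, the 9 fitted genes ran from -0.21 to 0.11 with a median of 0.00087, and 0 of 9 passed, against 0.0% of all probes. Their unadjusted p-values then stayed above 0.05 as well (lowest 0.0995, limma), against 7.99% of all probes below it. Of the 9 genes measured on all arrays, 0 kept 1 sign on all 4, against 11.1% of all probes. On arrays 1, 3 and 4 only Scg5 kept 1 sign, 1 of 9 genes against 17.7% of all probes. With 4 arrays the intervals remained wide for Pcsk2, Cpe, Scg2 and Pam, and a p above the threshold does not show equal levels.

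The library labelled male 2 stood at an end of the range for most of these genes. After removal of the dye mean it was the highest or the lowest of the 8 animals for 8 of 9 genes, against 51.2% of all probes. It was the highest for Chgb, Scg3, Scg5, Pcsk2 and Cpe, and the lowest for Scg2, Vgf and Pam. Granins, convertase 2, its chaperone and carboxypeptidase E thus stood on one side, and other granins and the amidating enzyme on the other. Array 2 differed at least 2-fold between its female and its male for 4 of 10 genes, against 9.26% of all probes. Scg2 and Pam were at least 2-fold higher in female 2 (3.9% of all probes), and Pcsk2 and Cpe at least 2-fold higher in the library labelled male 2 (5.36%). On arrays 1, 3 and 4 the count was 0 genes on each, against 3.16%, 2.37% and 2.07% of all probes. The median absolute ratio of the 10 genes on array 2 was 0.82, beside 0.29 for all named genes.

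The spread among animals of 1 sex also differed with and without replicate 2. The median SD of the 9 genes after removal of the dye mean was 0.12 in females and 0.29 in males, beside 0.12 in females and 0.14 in males over all kept probes. Without replicate 2 these medians were 0.09 in females and 0.07 in males for the 9 genes, beside 0.09 and 0.08 over all kept probes. The fit also depended on array 4. Without it, 4 of 9 genes passed an adjusted p under 0.05 in limma, against 6.78% of all probes: Scg2 at 0.59 (adjusted p = 0.0395) and Pam at 0.70 (0.0439) with females higher, and Pcsk2 at -0.74 (0.0408) and Cpe at -0.69 (0.0333) with females lower. By direction, 3.34% of all probes passed with females higher and 3.44% with females lower. These are the 4 genes that differed at least 2-fold on array 2, which stays in that fit. There array 2 alone has the female as the Cy5 sample, so its own deviation does not enter the error. The p-values without array 4 thus do not measure how far array 2 lies from other arrays.

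**Figure D3:**
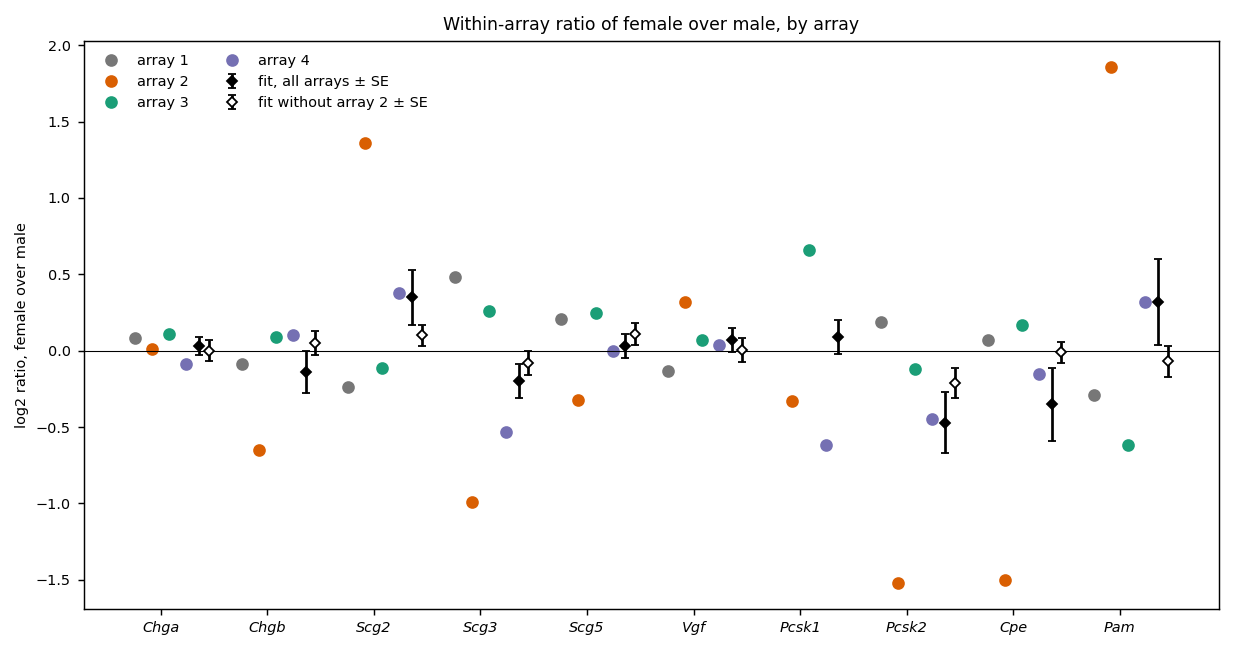
Log2 ratio of female over male for each gene on arrays 1 to 4 (coloured points), with the fitted ratio and its standard error over all arrays (filled diamonds) and without array 2 (open diamonds). Array 2 lies apart for Pam (1.86), Scg2 (1.36), Pcsk2 (-1.52) and Cpe (-1.50), and the open diamonds lie between -0.21 and 0.11.

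The way the genes varied together also changed with replicate 2. Correlations were taken over the 8 animals on levels less the mean of their dye. They are descriptions over few animals, and animals of 1 array share that array. Among 36 pairs of the 9 genes, 15 had an absolute Pearson r above 0.7, 9 of them positive and 6 negative. Cpe and Scg2 were opposed at r = -0.97 over 8 animals and at -0.67 over the 6 without replicate 2. Cpe and Pcsk2, a trimming and a cutting enzyme, ran together at 0.88 over 8 animals but were opposed at -0.50 over 6. Cpe and Chgb turned likewise, with 0.86 over 8 animals and -0.65 over 6. Pcsk2 and Scg3 kept their sign at 0.87 and 0.40. Without replicate 2, 10 pairs were above 0.7 in absolute r, and the median absolute r was 0.54, beside 0.68 with it.

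Chga, Chgb, Scg2, Scg5 and Vgf varied in 1 direction in the animals of the other arrays. Their 10 pairs had r of 0.55 to 0.96 over the 6 animals without replicate 2, and of -0.80 to 0.82 over all 8. This set of genes was chosen after its values were seen. Without replicate 2 the dye means are unbalanced for sex: Cy3 holds females 1 and 3 and male 4, and Cy5 female 4 and males 1 and 3. Removal of the dye mean then takes up part of any sex difference. Over those 6 animals, levels less the dye mean were -0.13, 0.11 and 0.14 in females 1, 3 and 4 for Scg2, against -0.12, -0.02 and 0.01 in males 1, 3 and 4. Chgb had -0.11, 0.07 and 0.10 in those females, against -0.05, -0.05 and 0.04 in those males. Female 1 was low and females 3 and 4 were high for both genes, and the differences were small, all under 0.3 on the log2 scale. Male 1, on the array of female 1, was also low for Scg2. For Chga female 1 and male 1 were at -0.10 and -0.09, and for Scg5 at -0.07 and -0.13. For Vgf female 1 was at -0.10 and male 1 near 0. The part of the shared array in these correlations was not tested.

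**Figure D4:**
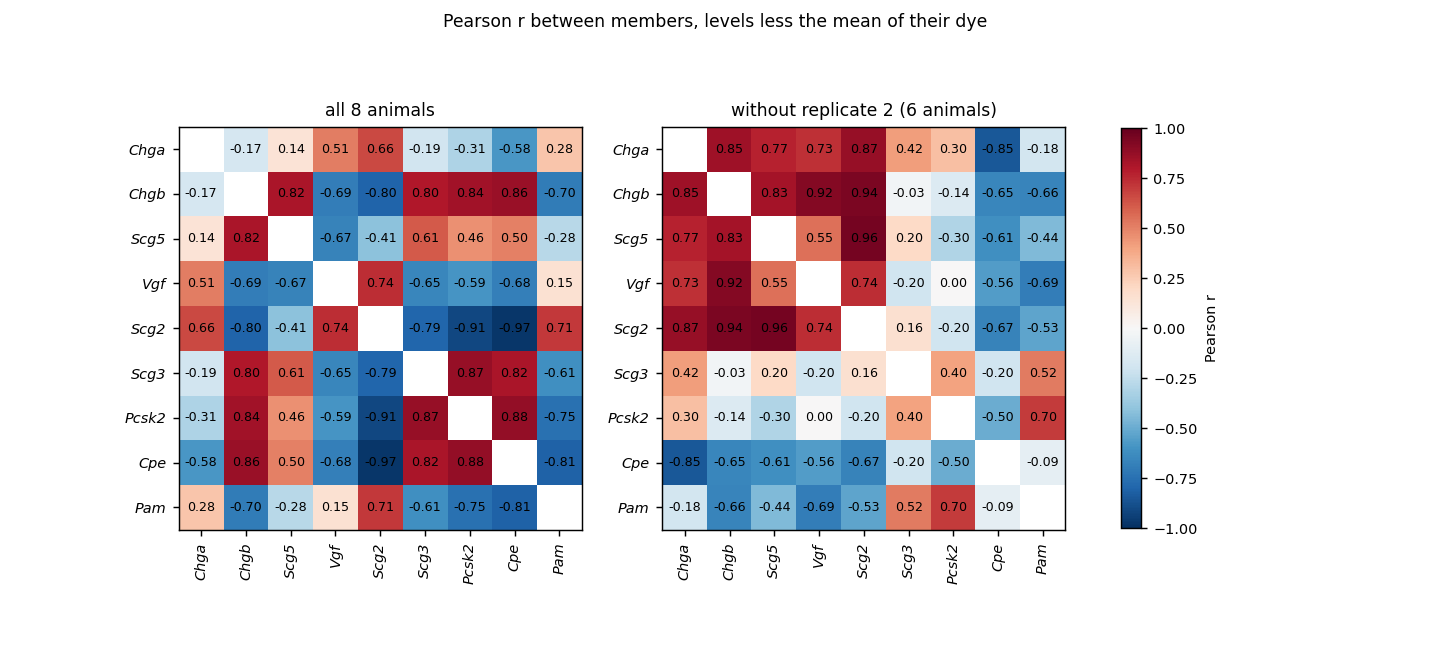
Pearson r between the 9 genes measured on all arrays, on log2 levels less the mean of their dye, over all 8 animals (left) and over the 6 without replicate 2 (right), red for positive and blue for negative. Cpe and Scg2 stand at -0.97 on the left and -0.67 on the right, and the block of Chga, Chgb, Scg5, Vgf and Scg2 is positive throughout on the right.

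Among 14487 genes complete in all 8 samples, those whose pattern over the 8 animals was most like that of each gene were ranked by Pearson r. Nearest to Cpe were Clptm1l, Serpini1 and Tmem68, each at r = 0.99 over 8 animals, and at 0.87, 0.93 and 0.70 without replicate 2. Nearest to Pcsk2 were Mgll, Cotl1 and Abhd6, at 0.98, 0.97 and 0.97, and at 0.94, 0.79 and 0.77 without replicate 2. Nearest to Scg2 were LOC688909, Snx8 and Inpp4b, at 1.00, 1.00 and 0.99, and at 0.99, 1.00 and 0.96 without replicate 2. Nearest to Pam were Vps35l, Ptchd1 and Pmvk, at 0.99, 0.99 and 0.98, and at 0.88, 0.85 and 0.81 without replicate 2. The first-ranked genes for the others were Fgfr2 for Chga (0.98), Htra1 for Chgb (1.00), Qrsl1 for Scg3 (0.99), Lgalsl for Scg5 (0.99) and Zfyve16 for Vgf (0.99). In none of these lists of 3 did another of the 10 genes appear. All 9 genes had neighbours at an r of 0.97 or above, and these values carry no test.

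The promoters of Scg2 and Vgf are shown because they are the 2 that hold the cyclic AMP response element TGACGTCA. Both genes had their lowest level in the library labelled male 2, but so did Pam, whose promoter window holds no such match. The letters TGACGTCA, which read the same on both strands, were searched in the RefSeq window of 250 bases before to 50 after the start (GRCr8), which was at hand for 8 of the 10 genes. They occur in 2 of those 8 promoters and in 612 of 33469 promoters in all (1.83%). Shown are the 250 bases before the start, on the minus strand, at chr9:88256867-88257116 for Scg2 and chr12:25277021-25277270 for Vgf, with the element in capitals, 123 and 90 bases before the start.
Scg2: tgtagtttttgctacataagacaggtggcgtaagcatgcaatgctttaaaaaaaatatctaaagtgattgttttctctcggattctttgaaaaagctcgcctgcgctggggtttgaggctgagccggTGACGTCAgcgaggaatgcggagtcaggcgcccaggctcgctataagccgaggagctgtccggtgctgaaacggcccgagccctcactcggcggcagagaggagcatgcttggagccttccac
Vgf: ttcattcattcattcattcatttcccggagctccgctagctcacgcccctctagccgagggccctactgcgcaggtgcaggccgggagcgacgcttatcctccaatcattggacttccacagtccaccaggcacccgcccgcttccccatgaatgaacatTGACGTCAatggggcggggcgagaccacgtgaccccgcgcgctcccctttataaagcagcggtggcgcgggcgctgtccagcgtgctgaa
Scg2 and Vgf correlated at r = 0.74 over 8 animals and at 0.74 over 6. A match of these letters is a description of the sequence and no measure of binding.

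The other genes of the pathway were read from lists by role, and 0 of 136 tested genes (of 143 listed) passed an adjusted p under 0.05 over all arrays, against 0.0% of all probes. The count was also 0 without array 2, but it was 30 of 135 without array 4, against 6.78% of all probes, as for the 10 genes above. The error of that fit likewise leaves out the deviation of array 2. At an unadjusted p under 0.05 in limma, 9 were higher in females, against 4.98% of all probes, and 2 lower in females, against 3.52%. Their median ratio was 0.02, and -0.01 without array 2. None of the 4 other genes listed with the granins passed even the unadjusted threshold over all arrays, against 8.5% of all probes. Pcsk1n, whose product inhibits convertase 1, gave 0.16 ± 0.19 and turned to -0.09 ± 0.08 without array 2. Ptprn2, a granule membrane protein, gave -0.13 ± 0.15 and turned to 0.06 ± 0.09. Gnas, whose locus also encodes a granin-like protein, gave 0.07 ± 0.08, and 0.01 ± 0.07 without array 2. Of the 5 tested proprotein convertases, Pcsk6 was below 0 on 4 of 4 arrays at -0.13 ± 0.07, and at -0.10 ± 0.07 without array 2. Pcsk7 gave 0.15 ± 0.07 with both signs among the arrays, and 0.15 ± 0.08 without array 2. Of the 15 other carboxypeptidases and modifying enzymes, Cpxm2, related to carboxypeptidase E, gave 0.76 ± 0.17 (limma adjusted p = 0.555). It was above 0 on 4 of 4 arrays. The fit without array 2 gave 0.52, from 0.21, 0.23 and 0.82 on arrays 1, 3 and 4. Tpst2, which sulfates tyrosines of secreted proteins, gave -0.52 ± 0.18, and -0.56 ± 0.22 without array 2.

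The genes of copper supply and of redox partners of amidation had a median of 0.13 over 8 genes, and of -5.9e-05 without array 2. Slc31a2, a copper transporter, gave 0.19 ± 0.07 and was above 0 on 4 of 4 arrays (0.14 ± 0.07 without array 2). The 40 genes of granule biogenesis, transport and release had a median of -0.06, with 13 above 0, beside 8210 of 14603 named genes. Of the 40, 0 were past the unadjusted threshold, against 8.5% of all probes. Without array 2 their median was -0.04, with 14 above 0. Rab3d, a small GTPase of secretory granules, gave -0.38 ± 0.14 and was below 0 on 4 of 4 arrays, and the ratio was -0.22 ± 0.11 without array 2, whose own ratio was -0.81. The 16 acidification genes had a median of -0.09, and of -0.03 without array 2. Clcn3, a granule chloride transporter, gave 0.22 ± 0.08, and 0.15 ± 0.07 without array 2. Of the 17 extracellular neuropeptidases, 3 were past the unadjusted threshold over all arrays, each with females higher, against 4.98% of all probes. Dpp4, which cleaves dipeptides from peptide ends, gave 0.30 ± 0.06 and was above 0 on 4 of 4 arrays (0.32 ± 0.07 without array 2). The endothelin-converting enzyme genes were smaller without array 2: Ece1 gave 0.41 ± 0.14, and 0.24 ± 0.10 without it, and Ece2 gave 0.36 ± 0.12, and 0.21 ± 0.09 without it.

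The cargo itself was set apart by array 2. The 31 tested peptide precursor genes had a median ratio of 0.48 with 25 above 0, beside 8210 of 14603 named genes. On array 2, 17 of the 31 were at least 2-fold higher in female 2, against 3.9% of all probes. Another 4 were at least 2-fold higher in the library labelled male 2, against 5.36%. On that array hypothalamic neuron markers, which share Avp, Pomc and others with this list, had a median of 2.47. Without array 2 the median of the peptide precursor genes was 0.07, beside 0.02 for all named genes, with 20 of 31 above 0. The share of all genes above 0 was not counted for that fit. Kiss1 and Gnrh1, the peptides that drive the reproductive axis, gave 0.48 ± 0.09 and 0.99 ± 0.20, each above 0 on 4 of 4 arrays, and 0.51 ± 0.11 and 0.81 ± 0.20 without array 2 (limma adjusted p = 0.598 for both). Tac3, the neurokinin B precursor, gave 0.49 ± 0.09 and was above 0 on 3 of 4, with 0.42 ± 0.08 without array 2.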

How the data were processed

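Hypothalamic RNA of 4 female and 4 male rats was measured on 4 two-colour arrays, grouped by the labels. Agilent Feature Extraction (10.7.3.1) read the scans, per the submitters' processing notes. Spot and background signals are scanned intensity values and the log ratio is on the log10 scale, red over green, per the file headers. The authors deposited log2 levels in a value table, with the same constant taken from every value of a sample. 0 columns belonged to other samples.

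Mean signals were corrected with normexp (offset 50) against median local background, and loess within each array gave controls a weight of 0 (limma 3.58.1, R 4.3.3). Outlier spots were left out. Levels per channel were scaled between arrays by Aquantile. The filter on dim signals asked that over 0.5 of a probe's spots were well above background in each sample of 1 or both sexes. It left 22004 probes, of which 21995 could be fitted. The log2 ratio was fitted with terms for sex and dye (lmFit, eBayes). Adjusted p-values are Benjamini-Hochberg over all probes. A gene was read by its brightest probe. The steps were tested on simulated data. Replicates are separate animals, and the number of arrays limits precision.

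A female and a male are paired by their shared array, which is the block of the fit. As a check, deviations of the animals of an array after the dye correlated at 0.57, 0.65, 0.41 and -0.05 over 21823 probes on arrays 1 to 4.

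The genes named are the 10 members, up to 3 genes of each pathway list with the smallest p, and the 3 genes nearest in pattern to a member. Other genes named in passing are markers by list. The members and lists were chosen with earlier results of these data known. Alternatives are given in the closing section. Plots were made in matplotlib 3.10.9 (Python 3.11.15).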

Additional observations from a re-analysis of the deposited data

Results flagged for a closer look

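In 3 of 18 groups of 4 animals tested, 1 animal lay far from the other 3 of its sex by Dixon's criterion (the gap to the nearest animal over the whole range), which flags about 1 in 20 groups by chance. All 3 are the library labelled male 2, which the same criterion marked for 5.84% of all kept probes. These levels hold both dyes, and after removal of the dye mean 1 of the 3, Chgb, was still marked, against 5.81% of all kept probes for that library. For Cpe it had a level of 16.88, and the other males 15.72 to 15.84, with a gap over range of 0.90. For Chgb it had 15.50, and the other males 14.86 to 14.92, with a gap over range of 0.91. For Vgf it had 14.75, and the other males 15.34 to 15.42, with a gap over range of 0.88. The same library held the lowest summed level of hypothalamic neuron markers, and the part of that in these values was not tested.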

How the results depend on the processing

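The 10 genes gave 0 calls at an adjusted p under 0.05 under all alternatives run but 1. The exception was leaving out replicate 4, so that over the 4 fits without 1 replicate the count ran from 0 to 4 of the genes and from 0 to 30 of the pathway genes, with 6.78% of all probes called without replicate 4. Over those fits the median ratio of the genes ran from -0.05 to 0.04. The replicate block is the array that a female and a male share, and without the replicate block, in a fit of separate channels, the median was 0.03 and the count 0, and no call changed. Direction turned for ratios near 0: Chga was -0.01 with median centring and -0.05 in the authors' value table, Pcsk1 was -0.09 with no dye term, and Scg5 was -0.05 without replicate 4. Without replicate 2, Chgb was 0.05 and Pam -0.07. With only the library labelled male 2 left out, a setting chosen after seeing the data, Chgb was 0.02 and Vgf -0.10. The cause was not tested. Over the fits without 1 replicate, Chgb ran from -0.32 to 0.05, Pam from -0.07 to 0.70 and Scg5 from -0.05 to 0.11. Over all alternatives Cpe ran from -0.69 to -0.01, Pcsk2 from -0.74 to -0.21 and Scg2 from 0.10 to 0.59, each with 1 sign throughout. Pcsk1 could not be fitted without replicates 2, 3 or 4. All 10 probes were well above background in every sample. The standard error of Cpe was 0.24 with all arrays, 0.07 without replicate 2 and also 0.07 without replicate 4. In a fit without 1 replicate, 1 array is alone in its dye orientation and adds nothing to the residual error. The smaller errors, and the calls without replicate 4, thus do not measure the spread between all arrays.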
